A study of Mus musculus with 8 samples.

Results

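Rab GTPases were examined in single mouse blastocysts by reading B6 and cast alleles apart. Of the 22810 genes in the counts, 56 carried a symbol of the form Rab followed by a number. After the exclusions named below 53 were kept, and 52 of these lay on autosomes. Rab9 lies on the X chromosome and was kept outside the tests. Rab38 and the X-linked genes Rab9b, Rab33a, Rab39b and Rab40l were left out, and Rab3a, Rab34 and Rab41 were not analysed here.

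Embryos were collected on embryonic day 3.5 after natural matings between C57BL/6 (B6), an inbred laboratory strain, and Mus musculus castaneus (cast), a strain of another subspecies, and were lysed without culture. There were 3 embryos of the forward cross, in which the mother was B6 and the father cast, and 5 of the reverse cross, in which the strains were exchanged (the latter numbered 1, 2, 3, 5 and 7). The labels give no deletion or treatment, each library was 1 whole blastocyst, and the labels do not give the sex. The labels do not tie embryos to litters, so embryos of a cross may be littermates. In the main allele tests the reads of each allele of an embryo formed a separate library, without a term for the embryo. Their p-values thus measure the spread between the allele libraries of these embryos, level differences between embryos included. A term for each embryo was fitted as an alternative. Every value rests on SMART-Seq2 reads over SNPs that differ between the strains.

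Rab proteins are small GTPases that mark the compartments of membrane traffic. Exchange factors load them with GTP, GTPase-activating proteins return them to the GDP form, and the active form recruits effectors such as motors and tethers to its membrane. A GDP dissociation inhibitor carries the inactive, prenylated protein between membranes. The blastocyst is enclosed by the trophectoderm, an epithelium with distinct apical and basolateral surfaces whose formation depends on directed membrane traffic.

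SNP-spanning reads per embryo ranged from 1060063 to 1632695, and 57.4% to 58.3% of them came from the B6 allele. The Rab genes received 3422 to 5016 reads per embryo, which was 0.263% to 0.329% of the total. Reverse embryo 1 stood apart, since its median correlation with the other embryos over 7161 genes was 0.658 against 0.871 to 0.908 for the others. All 7 trophectoderm markers were detected, and their summed level was 1290 CPM (reads of the gene or list, scaled to the reads of the embryo) in reverse embryo 1, 3924 to 4141 in the other reverse embryos and 4176 to 5253 in the forward embryos. All 6 leukocyte and macrophage markers also had reads, but over all embryos most of these reads were of Lyz2. Their summed level was 686 CPM in forward embryo 1 and 33.0 to 33.7 in the other forward embryos. In the reverse embryos these markers summed to 1.99 to 5.0 CPM. Their part in the results was not tested, and calls that changed without either embryo are given beside the genes or lists they concern. In whole embryos, fewer cells of a type and less RNA per cell cannot be told apart.

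Of the 52 autosomal Rab genes, 40 had at least 10 reads in 1 or more of the 16 allele libraries and were tested, with 40 to 3191 reads each over all embryos. The allele of each read followed the strain for some Rab genes. With edgeR's quasi-likelihood test, strain and parent as model terms and Benjamini-Hochberg adjustment over all 12565 autosomal genes tested, 8 of the 40 (20%) differed between strains at an adjusted p of at most 0.1, beside 15.4% of all genes. The B6 allele was higher for 5 of them (10.9% of all genes) and the cast allele for 3 (4.47% of all genes). The median cast minus B6 log2 difference of the 40 was 0.04, beside -0.05 over all genes tested. TMM scaling of each allele library removed the general excess of B6 reads, so these differences are relative to it. Reads were aligned to mm10, which represents the B6 strain, and any loss of cast reads at single genes was not tested.

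With 1 library size per embryo, which keeps the excess of B6 reads, the median over all genes moved to -0.39. Then 7 Rab genes passed, 6 toward B6 and 1 toward cast, because Rab1a and Rab23 no longer passed and Rab20 did. Over all genes 20.9% passed under this scaling, 18.3% toward B6 and 2.6% toward cast. The alleles of an embryo form a pair, and with a term for each embryo 12 of the 40 (30%) passed, 7 toward B6 and 5 toward cast, beside 25.5% of all genes (15.7% toward B6 and 9.87% toward cast). Leaving out 1 embryo at a time gave 5 to 9 Rab genes. There were 5 without forward embryo 1, 2 or 3 (9.89%, 10.6% and 10.4% of all genes) or without reverse embryo 7 (12.5% of all genes), and 9 without reverse embryo 1 (20.6% of all genes).

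The promoters of 3 strain-biased genes are shown because their genes went in opposite directions between the strains, Rab27a toward B6 and Rab11a and Rab23 toward cast. They are the 250 bases before the RefSeq start in the GRCm38.p6 assembly, which represents the B6 strain, so the cast letters are not shown. Capitals mark GC boxes, GGGCGG or CCGCCC on the strand shown.
Rab27a, chr9:73044560-73044809, plus strand: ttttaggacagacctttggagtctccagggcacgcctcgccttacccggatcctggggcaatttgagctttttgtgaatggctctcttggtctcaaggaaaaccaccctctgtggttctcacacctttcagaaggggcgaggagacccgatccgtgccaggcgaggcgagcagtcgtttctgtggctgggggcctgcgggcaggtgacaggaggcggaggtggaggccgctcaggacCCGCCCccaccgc
Rab11a, chr9:64737757-64738006, minus strand: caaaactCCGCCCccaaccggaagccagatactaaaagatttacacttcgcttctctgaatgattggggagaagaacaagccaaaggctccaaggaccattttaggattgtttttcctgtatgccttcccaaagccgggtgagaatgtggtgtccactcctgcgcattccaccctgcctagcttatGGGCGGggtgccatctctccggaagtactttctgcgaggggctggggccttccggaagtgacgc
Rab23, chr1:33719646-33719895, plus strand: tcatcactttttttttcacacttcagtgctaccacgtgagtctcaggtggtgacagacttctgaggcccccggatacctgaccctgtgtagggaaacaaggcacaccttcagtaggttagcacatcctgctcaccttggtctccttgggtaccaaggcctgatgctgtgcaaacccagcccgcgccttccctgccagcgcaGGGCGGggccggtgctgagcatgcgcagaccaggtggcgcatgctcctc

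A GC box on either strand was present in the promoter window of 7 of the 8 strain-biased Rab genes (87.5%), Rab7 being the exception. It was present in 27 of the 36 tested Rab genes with a window (75.0%) and in 33.0% of 32619 promoters of all genes. CCAAT or its reverse complement ATTGG was found in 2 of the 8, in 17 of the 36 (47.2%) and in 34.0% of all promoters. TATAAA or TTTATA was found only in that of Rab7 among the 8, in 2 of the 36 (5.6%) and in 12.4% of all promoters. These matches are descriptions of the B6 letters.

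Rab15, which acts in endosomal recycling, had nearly all its reads on the B6 allele. The gene spans chr12:76797960-76822908 in mm10. In forward embryos 1, 2 and 3 the B6 reads were 18, 17 and 10. Reverse embryos 1, 2, 3, 5 and 7 had 1, 28, 16, 10 and 7 B6 reads. Cast reads were 0, 1 and 1 in the forward embryos and 0 in all 5 reverse embryos. The B6 allele was thus higher in every embryo, whether it came from the mother or the father. Only 2 of 109 reads were cast, a share of 1.84% with an exact 95% binomial interval of 0.223% to 6.47% that covers counting error only. The cast minus B6 log2 difference was -4.85 ± 0.93 (SE, adjusted p = 0.000297 by edgeR), and Rab15 passed without any single embryo.

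Rab27a (chr9:73044854-73097629) docks secretory lysosomes and melanosomes for release. Its B6 and cast reads were 74 and 11, 43 and 7, and 19 and 7 in the forward embryos. They were 157 and 33, 39 and 10, 38 and 9, 28 and 12, and 30 and 7 in the reverse embryos. B6 reads were higher in 8 of 8 embryos, with a share of 82.1% ± 7.79 for forward (SD, n = 3) and 78.8% ± 5.05 for reverse embryos (SD, n = 5). The difference was -1.82 ± 0.43 on the log2 scale (SE, adjusted p = 0.00526 by edgeR), and it passed without any single embryo. A small part of its transcript sequence, 3.59% of its 50-base words, also occurs in transcripts of other annotated genes.

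Rab7 (chr6:87999106-88045270), which directs late endosomes to lysosomes, was the third gene that passed whichever embryo was left out. It had 190 and 63, 161 and 49, and 144 and 64 B6 and cast reads in the forward embryos. The reverse embryos had 273 and 110, 230 and 78, 243 and 68, 175 and 64, and 180 and 36. The B6 share was 73.7% ± 3.92 for forward (SD, n = 3) and 76.1% ± 4.74 for reverse embryos (SD, n = 5), so it lay above the share of all reads in 8 of 8 embryos. The cast minus B6 difference was -1.24 ± 0.23 (log2, SE, adjusted p = 0.000685 by edgeR). A pseudogene copy and an antisense gene share sequence or position with Rab7, and 12.7% of its 50-base words occur in other transcripts. Only uniquely placed reads entered, and the share of Rab7 reads that this affects was not tested.

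Rab35 and Rab6b passed toward B6 with less support. Rab35, which acts in recycling at the plasma membrane and in cytokinesis, had B6 and cast reads of 87 and 34, 31 and 12, and 47 and 15 in the forward embryos and of 21 and 3, 33 and 26, 41 and 10, 59 and 14, and 33 and 17 in the reverse embryos. Its B6 share was above that of all reads in 7 of 8 embryos, with reverse embryo 2 as the exception at 55.9%. The difference was -1.09 ± 0.39 (log2, SE, adjusted p = 0.0734 by edgeR). It was lost when any single forward embryo or reverse embryo 3, 5 or 7 was left out, with adjusted p between 0.107 and 0.202.

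Rab6b, a Golgi Rab, had B6 and cast reads of 21 and 0, 6 and 4, and 3 and 6 in the forward embryos and of 20 and 0, 13 and 0, 2 and 0, 16 and 2, and 10 and 0 in the reverse embryos. Reads of the reverse embryos were nearly all B6, while the forward embryos ran from all B6 to mostly cast. Over all embryos 12 of 103 reads were cast, or 11.7%, and single embryos ran from 0 of 21 to 6 of 9. The difference was -2.37 ± 0.84 (log2, SE, adjusted p = 0.0615 by edgeR). It did not pass without forward embryo 1 (adjusted p = 0.3), reverse embryo 2 (0.119) or reverse embryo 7 (0.128).

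**Figure D1:**
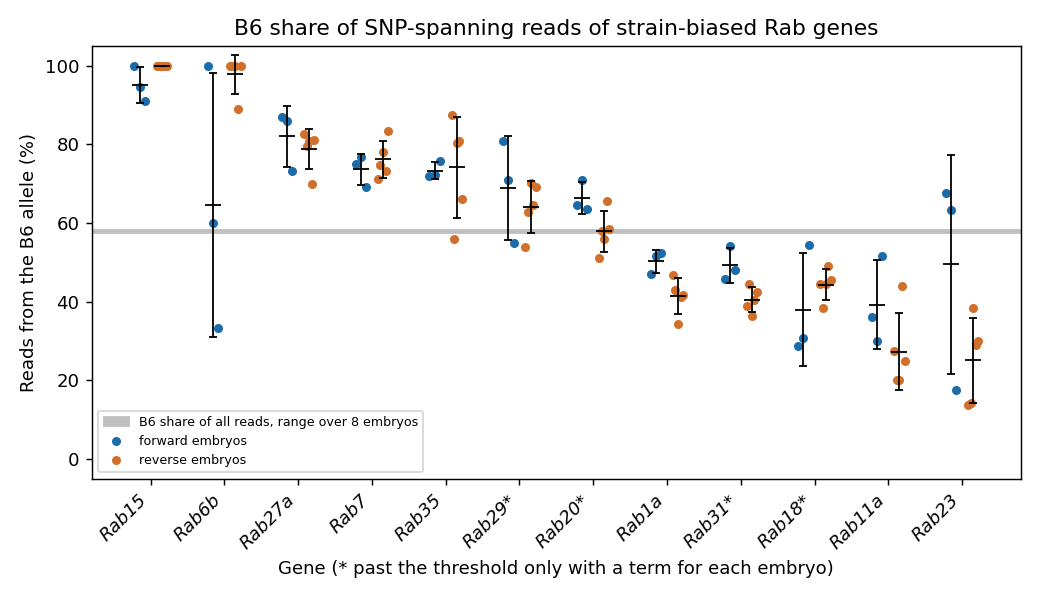
Share of SNP-spanning reads from the B6 allele (y axis, percent) for the Rab genes past the threshold (x axis), in 3 forward and 5 reverse embryos (points) with mean and SD (bars). The grey band is the B6 share of all reads, 57.4% to 58.3%. Rab15, Rab27a and Rab7 lay above the band in every embryo, and Rab1a, Rab31, Rab18 and Rab11a below it in every embryo.

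Toward cast, Rab11a (chr9:64715299-64737758), a Rab of recycling endosomes and apical delivery, had B6 and cast reads of 9 and 16, 9 and 21, and 15 and 14 in the forward embryos. The reverse embryos had 19 and 50, 6 and 24, 4 and 16, 11 and 14, and 5 and 15. The B6 share stayed below that of all reads in 8 of 8 embryos, at 39.2% ± 11.2 for forward (SD, n = 3) and 27.3% ± 9.89 for reverse embryos (SD, n = 5). The difference was 1.34 ± 0.40 (log2, SE, adjusted p = 0.0276 by edgeR), and it did not pass without forward embryo 2 (adjusted p = 0.166).

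Rab23 (chr1:33719887-33742564), a negative regulator of hedgehog signalling linked to the cilium, was cast-biased unevenly. Its B6 and cast reads were 23 and 11, 19 and 11, and 7 and 33 in the forward embryos and 7 and 44, 8 and 48, 5 and 8, 9 and 22, and 3 and 7 in the reverse embryos. Cast reads were higher in all 5 reverse embryos but in only 1 of the 3 forward embryos. The strain difference was 1.39 ± 0.45 (log2, SE, adjusted p = 0.045 by edgeR). It did not pass without forward embryo 3 (adjusted p = 0.403) or reverse embryo 2 (0.124), and Rab23 also had the lowest paternal minus maternal difference of the 40, at -0.82 ± 0.45 (log2, SE, adjusted p = 0.794 by edgeR).

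Rab1a (chr11:20201432-20226856) carries vesicles from the endoplasmic reticulum to the Golgi and had many reads and a small difference. Its B6 and cast reads were 160 and 181, 119 and 112, and 126 and 115 in the forward embryos and 172 and 195, 118 and 156, 96 and 184, 101 and 145, and 91 and 127 in the reverse embryos. The B6 share was below that of all reads in 8 of 8 embryos, although B6 reads outnumbered cast reads in forward embryos 2 and 3. The difference was 0.59 ± 0.20 (log2, SE, adjusted p = 0.0599 by edgeR), and it passed only without reverse embryo 1 or 2 among the single embryos left out.

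The term for each embryo added 4 genes. Rab18, a Rab of the endoplasmic reticulum and lipid droplets, had B6 and cast reads of 31 and 77, 47 and 106, and 73 and 61 in the forward embryos. The reverse embryos had 104 and 130, 95 and 153, 147 and 184, 77 and 80, and 81 and 97. Cast reads were thus higher in every embryo except forward embryo 3, and the difference moved from 0.83 ± 0.36 (log2, SE, adjusted p = 0.152 by edgeR) to 0.87 (adjusted p = 0.00133) with the embryo term.

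Rab31, which acts between the early endosome and the trans-Golgi, had B6 shares of 49.3% ± 4.41 (SD, n = 3) and 40.5% ± 3.22 (SD, n = 5) in the forward and reverse embryos, below that of all reads in 8 of 8. Its difference was 0.64 both without the term (adjusted p = 0.146) and with it (adjusted p = 0.0163 by edgeR). Rab31 also passed with DESeq2 (adjusted p = 0.0726) and, by edgeR, without reverse embryo 1 (log2 0.62, adjusted p = 0.0977). Rab20, an early endosome Rab, had B6 shares of 66.3% ± 4.02 (SD, n = 3) and 57.8% ± 5.20 (SD, n = 5). The difference of Rab20 was -0.39 (adjusted p = 0.323) and -0.38 with the term (adjusted p = 0.051 by edgeR). An overlapping noncoding transcript shares 22.9% of the 50-base words of Rab20. Rab29, which is linked to the Golgi and lysosomes, moved from -0.61 (adjusted p = 0.531) to -0.66 (adjusted p = 0.0142 by edgeR).

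The crosses were made to compare parental alleles, and none of the 40 Rab genes tested passed this comparison. Rab38, which the study lists among maternally expressed genes, was left out beforehand and is not covered. By edgeR 0 of the 40 differed between the paternal and the maternal allele at an adjusted p of at most 0.1, beside 1.42% of all genes. The count was 0 also with DESeq2, with a term for each embryo (3.11% of all genes) and without any single embryo. In simulated data over all genes past the filter the test recovered 12% of 2-fold parental differences, so a count of 0 can miss differences of that size. The simulation did not pair the alleles of an embryo, and its rate is not that of these 40 genes. A single Rab gene, Rab43, had an unadjusted p under 0.05. Paternal minus maternal log2 differences ran from -0.82 for Rab23 to 2.45 for Rab43 with a median of -0.10, beside -0.01 over all genes, and 34 of the 40 lay within 0.5 of 0. No autosomal Rab gene with at least 5 reads in 6 or more embryos had more reads from the same parent in all of those embryos.

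Rab43, a Golgi Rab, rested on few reads. Its paternal reads were 2 of 3, 11 of 11 and 0 of 1 in the forward embryos and 21 of 21, 3 of 4, 1 of 2, 4 of 7 and 2 of 2 in the reverse embryos. Forward embryo 2 and reverse embryo 1 held most of these reads, and the other embryos were mixed or had too few. The difference was 2.45 ± 1.07 (log2, SE, adjusted p = 0.483 by edgeR), and 74.5% of the 50-base words of Rab43 occur in transcripts of other genes.

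A test of equivalence asks whether the paternal to maternal difference lies within 1 log2 unit. It was passed by 18 of the 40 (45%) at an adjusted p of at most 0.1 by edgeR, beside 35.4% of all genes. Among the Rabs of the endoplasmic reticulum and Golgi these were Rab1a, Rab1b, Rab2a, Rab6a and Rab18. Among the early endosome Rabs they were Rab5a, Rab20, Rab22a and Rab31, and among the recycling Rabs Rab14, Rab17 and Rab35. Exocytic Rab8a and Rab10 with Rab12, which was listed beside them, late endosomal Rab7 and Rab24, and secretory Rab27a completed the set. Among genes with at least 10 reads in every embryo, 24 of 29 Rab genes passed, beside 5589 of 7161 over all genes.

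The other 22 Rab genes were neither biased by parent nor shown to be equivalent. With a term for each embryo 22 of 40 (55%) were equivalent, beside 45.3% of all genes, adding Rab4a, Rab11b, Rab29 and Rab30. The count fell to 11, 6 and 5 without forward embryo 1, 2 and 3 and was 22 without reverse embryo 1. The share of all genes moved alike, to 17.0%, 14.7% and 13.2% without the forward embryos and 47.4% without reverse embryo 1. Without forward embryo 1 the equivalence of Rab5a, Rab12, Rab14, Rab17, Rab27a, Rab31 and Rab35 was not called.

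**Figure D2:**
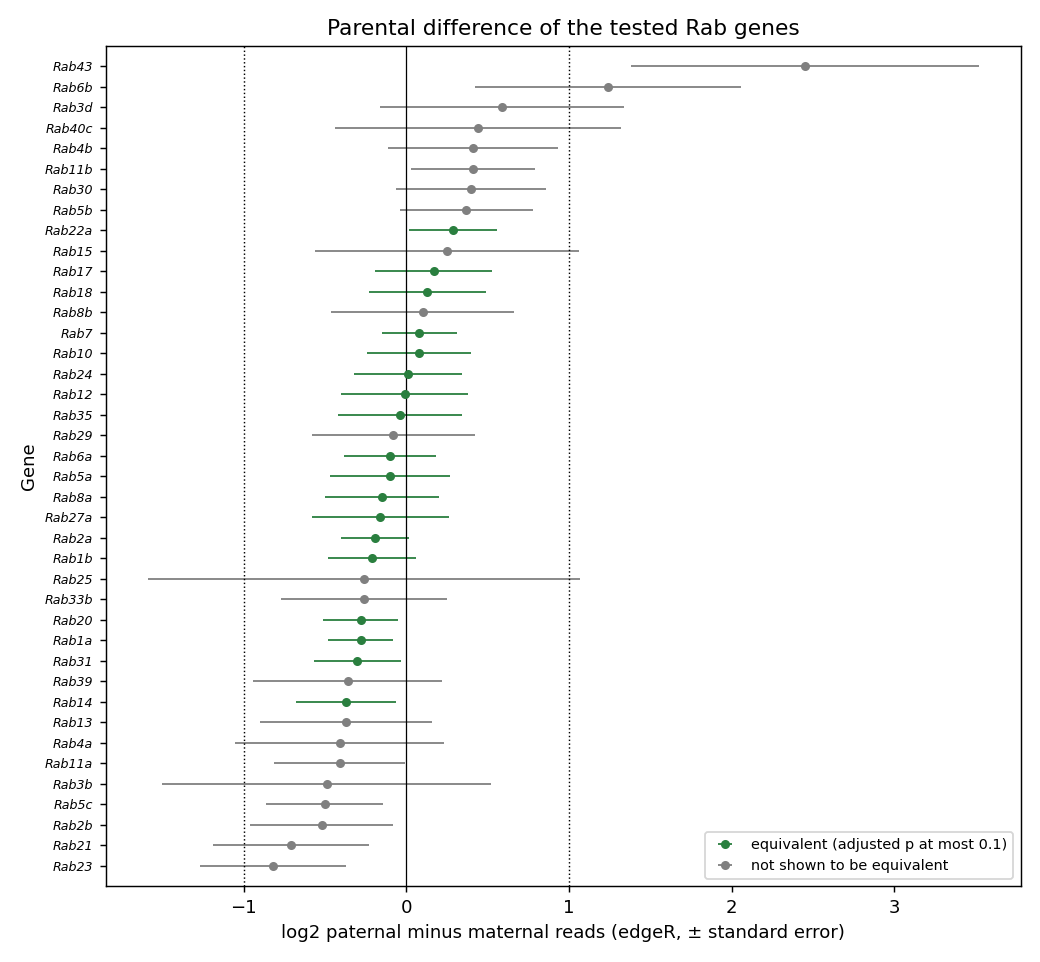
Paternal minus maternal log2 difference (x axis) with its standard error (bars) for the 40 Rab genes tested (y axis), from edgeR over 16 allele libraries. Dotted lines mark the margin of 1 log2 unit, and the 18 genes in green passed the equivalence test, while Rab43 at 2.45 and Rab6b at 1.24 had the highest values.

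Genes with many reads showed how close the parental alleles were. Rab2a, which acts between the endoplasmic reticulum and the Golgi, had the most reads of the 40 at 3191. Its paternal share was 35.7%, 48.1% and 48.9% in the forward embryos and 47.1%, 48.5%, 52.8%, 48.2% and 50.6% in the reverse embryos. Forward embryo 1 was the lowest, and the parental difference was -0.19 ± 0.21 (log2, SE, equivalence adjusted p = 0.017 by edgeR). Rab17, an epithelial Rab of polarised recycling, had paternal shares of 38.5%, 52.3% and 51.4% in the forward and of 47.5%, 49.0%, 55.1%, 66.2% and 62.0% in the reverse embryos. The paternal share of Rab17 thus fell on both sides of even in both crosses, with a difference of 0.17 ± 0.36 (log2, SE, equivalence adjusted p = 0.0642 by edgeR). Its equivalence was not called without forward embryo 1, 2 or 3 or without reverse embryo 2, with adjusted p between 0.103 and 0.159.

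Rab8a, a Rab of exocytosis and the cilium, had paternal shares of 38.8%, 45.3% and 51.5% in the forward embryos and of 56.1%, 57.3%, 46.0%, 55.6% and 41.3% in the reverse embryos. Both crosses again held embryos on either side of even, and the difference was -0.15 ± 0.35 (log2, SE, equivalence adjusted p = 0.0501 by edgeR). Rab24, linked to autophagy, had a difference of 0.01 ± 0.33 (log2, SE, equivalence adjusted p = 0.0291 by edgeR), and 49.6% of its 50-base words are shared with an overlapping gene. For Rab22a of early endosomes it was 0.29 ± 0.27, for Rab10 of basolateral delivery 0.08 ± 0.32, and for Rab12 of endosome to lysosome transport -0.01 ± 0.39 (log2, SE).

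Few reads left other parental differences wide. Rab3d of secretory granules had 117 reads and a difference of 0.59 ± 0.75 (log2, SE). Rab3b, also of secretory granules, had 78 reads and -0.49 ± 1.01, and Rab40c, a Rab with a SOCS box, had 57 reads and 0.44 ± 0.88. Their standard errors ran from below to just above the margin of 1 log2 unit. Rab4a of fast recycling had 939 reads and -0.41 ± 0.64 (log2, SE, equivalence adjusted p = 0.302 by edgeR). With a term for each embryo its parental difference was -0.51 ± 0.23 (log2, SE, adjusted p = 0.457 by edgeR). Its equivalence then passed (adjusted p = 0.0579 by edgeR).

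Taking Rab genes that reached 20 reads in an embryo, the median B6 share was 54.5% to 62.9% in the forward and 53.1% to 57.6% in the reverse embryos. Over all genes tested it was 55.5% to 56.4% and 55.4% to 58.0%. Forward embryo 1 gave the highest Rab median, and the ranges of Rab genes and all genes overlapped in both crosses.

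Rab levels were next compared between crosses with both alleles summed. Of the 42 Rab genes with at least 10 reads in 1 embryo, 0 differed at an adjusted p of at most 0.1 by edgeR, beside 0.0688% of all 13078 genes tested. In simulated data 2.2% of 2-fold cross differences were recovered. The median reverse minus forward log2 difference was 0.03, beside 0.08 over all genes, and 1 Rab gene, Rab29, had an unadjusted p under 0.05. DESeq2 called 1, which was Rab29, beside 1.04% of all genes by DESeq2. Among the 42, Rab29 was the only one whose scaled reads did not overlap between crosses, beside 6.24% of all genes tested.

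Scaled reads of Rab29 (chr1:131867224-131872887) were 54.3, 119.5 and 92.6 CPM in the forward embryos. They were 127, 343, 188, 209 and 262 CPM in the reverse embryos. Every reverse embryo was above every forward embryo, though reverse embryo 1 lay close to forward embryo 2. The means were 88.8 ± 32.8 (SD, n = 3) and 226 ± 81.2 (SD, n = 5), and the difference was 1.35 ± 0.39 (log2, SE, adjusted p = 0.396 by edgeR). It passed with DESeq2 (log2 1.36) and, by edgeR, without reverse embryo 1 (log2 1.5, beside 1.27% of all genes called there), and its adjusted p by either tool ran from 0.0321 to 0.996 over all alternatives.

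Levels also varied among the embryos of a cross. Reverse embryo 1, which stood apart over all genes, had the highest value for some Rab genes and the lowest for others. Rab4a varied widely, with 87.2, 109 and 82.8 scaled CPM in the forward embryos and 0.601, 59.4, 234, 108 and 55.2 in the reverse embryos. Reverse embryo 1 had a single Rab4a read while every other embryo had at least 55.2 CPM. The cross difference of Rab4a was -0.03 ± 0.81 (log2, SE, adjusted p = 0.998 by edgeR).

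Rab8a, at 182, 199 and 247 CPM in the forward and 83.5, 275, 430, 222 and 335 in the reverse embryos, was also lowest in reverse embryo 1. Rab17 was at 90.3, 191 and 297 CPM in the forward embryos and at 120.1, 311, 377, 314 and 286 in the reverse embryos, of which reverse embryo 1 was again the lowest. Both had means that differed between crosses by less than the larger of their SDs, at 209 ± 33.4 and 269 ± 129 for Rab8a and 193 ± 103 and 281 ± 96.2 for Rab17 (SD, n = 3 and n = 5).

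Rab27a, Rab11a and Rab10 went the other way in reverse embryo 1. Rab27a had 51.9, 44.6 and 21.3 scaled CPM in the forward embryos and 114, 30.9, 39.4, 30.3 and 35.8 in the reverse embryos. Rab11a had 15.3, 26.8 and 23.8 and then 41.4, 18.9, 16.8, 18.9 and 19.4 CPM. Rab10 had 73.8, 78.5 and 81.9 and then 135, 61.3, 57.0, 47.0 and 42.6 CPM. The highest value of each was that of reverse embryo 1, and the other 4 reverse embryos lay within the forward range for Rab27a and Rab11a and below it for Rab10. The trophectoderm markers were lowest in the same embryo, as given above, and their part in these values was not tested.

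Rab1a and Rab2a varied little between embryos. Rab1a was at 204 ± 5.61 (SD, n = 3) and 205 ± 25.1 (SD, n = 5) scaled CPM in the forward and reverse embryos. Rab2a was at 318 ± 41.0 and 288 ± 41.7 (SD, n = 3 and n = 5). Their cross differences were 0.01 ± 0.28 and -0.14 ± 0.29 (log2, SE). Levels of different genes are not ranked here, since reads depend on transcript length and on the number of SNPs.

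**Figure D3:**
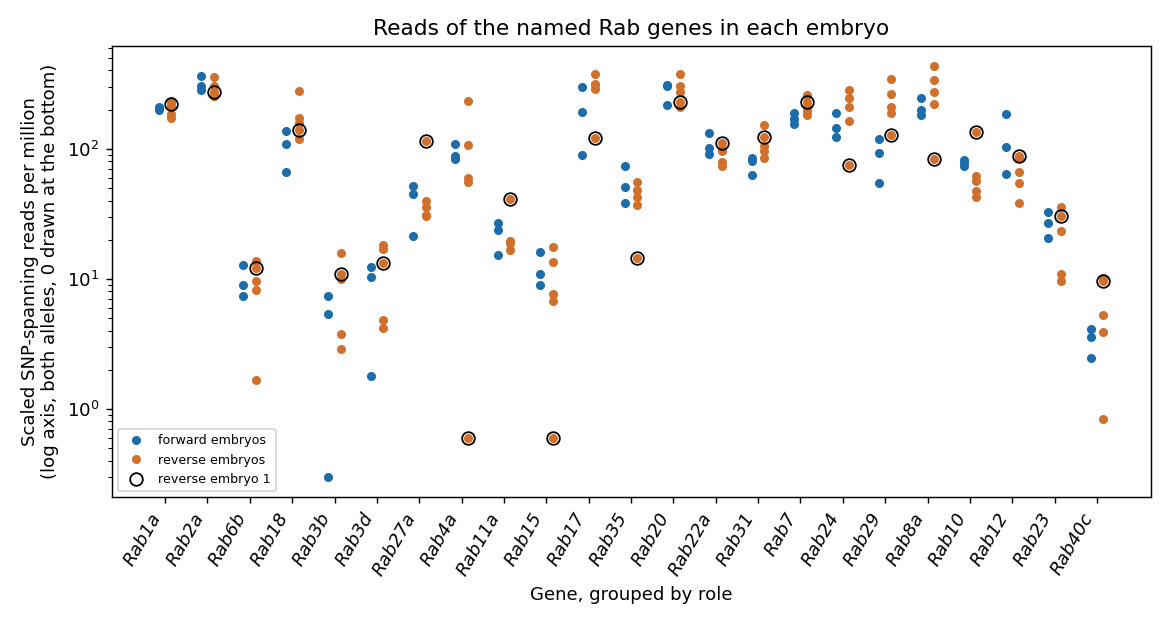
Scaled SNP-spanning reads of both alleles in CPM (y axis, log scale, with the single value of 0 at the bottom) for the named Rab genes (x axis, grouped by role) in 3 forward and 5 reverse embryos (points). Circles mark reverse embryo 1, which was lowest for Rab4a at 0.601 and highest for Rab27a at 114.

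The 12 autosomal Rab genes outside the allele tests had 1 to 71 reads in all. Rab26 (71 reads, 29 B6 and 42 cast) and Rab28 (37 reads, 14 B6 and 23 cast) were tested between crosses only. Rab3c had 13 reads, all B6, over 6 embryos, and Rab27b 10 reads, all B6, over 5 embryos. A count of 0 cast reads allows a cast share of up to 23.1% for Rab3c and 30% for Rab27b, taking 3 counts of the total as the limit. Such limits cover counting error only, since reads without molecular identifiers are not independent molecules. With no filter on low counts both passed the strain test, which gave 9 Rab genes (13.0% of all genes passed there) because Rab1a did not pass there. Rab19 with 5 and Rab44 with 8 reads also had B6 reads only. Rab7b had 1 read, Rab36 had 8, Rab37 had 13, Rab32 had 20, Rab42 had 23 and Rab40b had 24, all too few for a statement on alleles at this depth.

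Rab9, which returns receptors from late endosomes to the trans-Golgi, lies at chrX:166457253-166479867 and had 447 reads. In the forward embryos all 54, 43 and 56 reads came from the maternal B6 allele. A count of 0 paternal reads allows a paternal share of up to 5.56%, 6.98% and 5.36% by the same limit for counting error. Reverse embryo 1 likewise had 0 paternal reads of 39, which allows up to 7.69%. The other 4 reverse embryos had 33 of 88, 19 of 65, 19 of 66 and 9 of 36 paternal reads, or 37.5%, 29.2%, 28.8% and 25%.

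The embryos thus fell into those with no paternal Rab9 read, which were the 3 forward embryos and reverse embryo 1, and those with at least 25% paternal reads. Over all X-linked reads the paternal share was 2.01% to 2.43% in the forward embryos, 6.09% in reverse embryo 1 and 33.9% to 41.3% in the other reverse embryos. For Rab9, the cross, the strain of the paternal X chromosome and the sex cannot be told apart between the forward and reverse embryos. Reverse embryo 1 had the same cross and paternal strain as the other reverse embryos. Its sex is not given and was not tested.

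**Figure D4:**
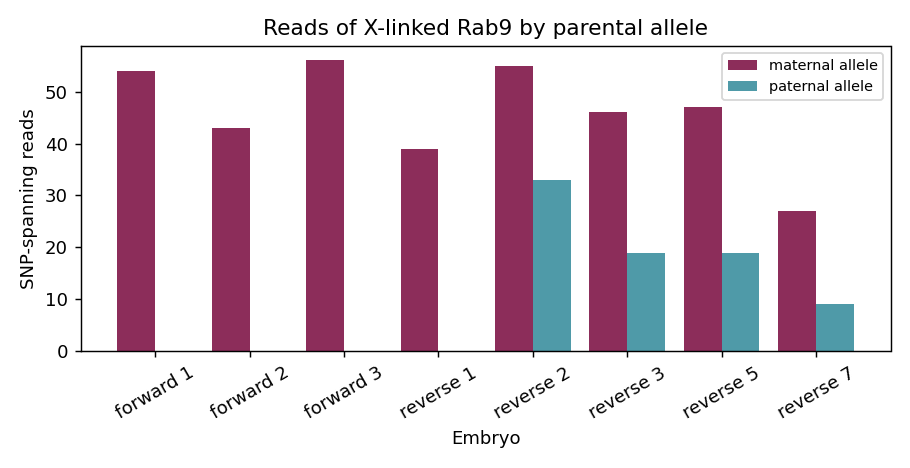
SNP-spanning reads of X-linked Rab9 (y axis, read count from 0) from the maternal and paternal allele in each of the 8 embryos (x axis). Paternal reads were 0 in the 3 forward embryos and reverse embryo 1 and 9 to 33 in the other reverse embryos, each of which had more maternal reads.

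Genes that load, switch and read out Rab proteins were examined beside them. Of 141 listed partner genes 139 were in the counts and 116 were tested. By edgeR 11 (9.48%) differed between strains, 6 toward B6 and 5 toward cast, beside 15.4% of all genes, and 27 (23.3%) did with a term for each embryo, beside 25.5%. Without forward embryo 1, 2 or 3 the count was 4, 7 or 7 (9.89%, 10.6% or 10.4% of all genes), and without reverse embryo 1 it was 17 (20.6% of all genes). By role, 2 of 5 genes of Rab prenylation and recycling, 2 of 44 exchange factors, 4 of 30 GTPase-activating proteins and 3 of 37 effectors and tethers passed. For comparison, 3 of 9 recycling Rabs and 2 of 10 endoplasmic reticulum and Golgi Rabs passed. Of the early endosome Rabs 0 of 7 passed, as did 0 of 5 on the exocytic and polarity list, which held Rab12. The others were 1 of 4 late endosome and lysosome Rabs, 1 of 3 secretory granule Rabs and 1 of 2 cilium and other Rabs.

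Sytl3, a Rab27 effector in secretion, had the highest cast excess of the partner genes that passed, with 114 of 121 reads on the cast allele. The difference was 4.30 ± 1.01 (log2, SE, adjusted p = 0.00365 by edgeR). However, 92 of the 121 reads came from forward embryos, where cast is also the paternal allele. The B6 share of Sytl3 in the reverse embryos with reads was 39.85% ± 52.29 (SD, n = 3). Micall2, a Rab13 effector at cell junctions, had a difference of 1.87 ± 0.56 (adjusted p = 0.029), and Sgsm2, a GTPase-activating protein, 1.86 ± 0.61 (adjusted p = 0.0461). Toward B6, the active zone scaffold Rims2, which binds Rab3, had -2.65 ± 0.50 (adjusted p = 0.000654). Sgsm1 had -2.35 ± 0.63 (adjusted p = 0.0134) and Tbc1d12, with a domain of Rab GTPase-activating proteins, -1.56 ± 0.44 (adjusted p = 0.0217). Micall2 did not pass without forward embryo 2, Sgsm2 without forward embryo 1 or 3 and Tbc1d12 without forward embryo 1.

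Parental bias was called for 2 of the 116 partner genes, beside 1.42% of all genes. Rims2 was higher on the paternal allele, with a difference of 2.12 ± 0.49 (log2, SE, adjusted p = 0.0291 by edgeR). Paternal reads of Rims2 made up 35.3% ± 14.3 for forward (SD, n = 3) and 96.6% ± 4.42 for reverse embryos (SD, n = 5). The parental excess was thus seen beside the strain difference and paternal reads were the majority only in the reverse embryos. Tbc1d5, a GTPase-activating protein for Rab7 that binds the retromer, was higher on the maternal allele, with -1.30 ± 0.33 (log2, SE, adjusted p = 0.0582 by edgeR) and paternal shares of 19.2% ± 6.97 (SD, n = 3) and 42.9% ± 20.9 (SD, n = 5). Neither was called without forward embryo 1 or without forward embryo 3, nor was Tbc1d5 without forward embryo 2 or reverse embryo 7.

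Of the partner genes 57 of 116 (49.1%) were equivalent between parents, beside 35.4% of all genes. Between crosses 0 of 118 passed by edgeR and by DESeq2, beside 0.0688% of all genes by edgeR, and 10 had an unadjusted p under 0.05.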

How the data were processed

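RNA of single blastocysts was sequenced with SMART-Seq2, 3 embryos from the forward and 5 from the reverse cross. According to the submitters' processing notes, reads were aligned to mm10 with STAR 2.5.2b. Only uniquely placed reads entered, and Allelome.Pro split those that cover a strain difference by allele. The authors deposited raw counts per gene, strain and embryo, with no normalization, and whether counting used strand was not stated. All columns belonged to these 8 embryos. Overlapping genes can therefore share reads.

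Maternal reads were B6 in forward and cast in reverse embryos. edgeR 4.0.16 in R 4.3.3 (limma 3.58.1) fitted strain and parent over 16 allele libraries with TMM factors and the quasi-likelihood test. Genes needed 10 reads in at least 1 allele library. For equivalence, 2 one-sided tests of the same kind were run at a margin of 1 log2 unit and the larger p was kept. Crosses were compared on embryo totals, and scaled reads are CPM with TMM factors. Adjustment was by Benjamini-Hochberg over all autosomal genes tested, with a threshold of 0.1. Fold changes used a prior count of 0.125. The scripts were tested on simulated data, drawn independently for each allele library over all genes past the filter, without the pairing of alleles. Of 2-fold differences put in, 4.3% for strain, 12% for parent and 2.2% for cross were recovered. For 4-fold differences the shares were 52.7%, 55.8% and 53.7%. Equivalence was called for 31.2% of unchanged genes. DESeq2 1.42.0, other scalings, filters and margins, an embryo term and leaving out each embryo were the alternatives.

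The alleles of an embryo come from the same embryo and so form a pair. Their deviations from the group means correlated within embryos at 0.0482 to 0.571. Genes with values were all Rab genes past the threshold with or without the embryo term, the 3 with most reads of each role, the 5 with the largest strain differences at 20 or more reads in each cross, and at most 6 partner genes a contrast. Rab43, Rab9, Rab26, Rab28 and other Rab genes with few reads lie outside this rule, their values having been seen when they were chosen, as do Rab genes named only within counts. Positions are from GENCODE release M21 for mm10 and promoter sequences from RefSeq (GRCm38.p6). The members and lists were chosen with earlier results of these data known.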

Additional observations from a re-analysis of the deposited data

Results flagged for a closer look

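In the reverse cross, 6 of the 42 Rab genes checked had 1 embryo far from the other 4 in scaled reads, in each case above them. Over all genes tested the rule marked 16.1%, in either direction. Its nominal rate of about 1 group in 20 is lower than that share, and genes of the same embryos are not independent checks. Reverse embryo 1 was that embryo for Rab27a (114 scaled CPM), Rab11a (41.4), Rab10 (135) and Rab30 (97.9). It was also the embryo that stood apart over all genes and had the lowest trophectoderm marker level, and the part of this in the Rab values was not tested. Reverse embryo 3 was the high embryo for Rab13 (41.0 scaled CPM) and Rab25 (10.05). Of 29 Rab genes checked for the B6 share, only Rab27a was marked, with reverse embryo 5 at 70.0% and below the other reverse embryos. That is no more than the nominal rate of the rule, and the share over all genes is not given for this check.

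X-linked Rab9 was outside the tests and had 447 reads, none of them paternal in 4 of the 8 embryos.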

How the results depend on the processing

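No strain, parental or cross difference that passed its threshold and was recomputed under the alternatives changed direction. Parental differences near 0 could, such as Rab12 with -0.01 and, with the embryo term, 0.12. Counts of Rab genes outside 1.5 times the main count were as follows. With a margin of 1.5-fold, 0 Rab genes were equivalent between parents, as were 0 of all 12565 genes. With DESeq2, 1 Rab gene differed between crosses. Among partner genes, 7 had strain bias when at least 10 reads were needed in every embryo and 27 with a term for each embryo, a replicate block. Leaving out 1 embryo at a time gave 5 to 9 Rab genes with strain bias, 5 to 22 equivalent between parents and 0 to 1 differing between crosses. The same gave 4 to 17 partner genes with strain bias, 4 without forward embryo 1 and 17 without reverse embryo 1, and 0 to 2 with parental bias. The cause was not tested.

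The other alternatives gave 6 to 12 Rab genes with strain bias and 0 with parental bias. For single genes 251 comparisons with an alternative other than leaving out an embryo kept their side of the threshold, 25 lost it and 8 gained it. When an embryo was left out 239 kept it, 71 lost it and 2 gained it. Replicate numbers were shared between crosses only as numbers, with correlations of 0.0313 to 0.245 across crosses, and the replicate block of numbers 1 to 3 gave 0 Rab genes and 0 partner genes differing between crosses. Rab25, Rab3b and Rab43, with 40, 78 and 51 reads, had standard errors of the parental difference past the margin of 1 log2 unit (1.33, 1.01 and 1.07). That of Rab4a with 939 reads was 0.64, and 0.23 with a term for each embryo.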
